A study of Mus musculus with 22 samples.

Results

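C1q-positive tissue macrophages were the barcodes of pooled mouse organs that carried the messenger RNA of complement component C1q and of the receptor Csf1r. Each barcode marks 1 droplet, and each unique molecular identifier (UMI) counts 1 captured transcript. Barcodes were kept with at least 200 detected genes and at most 25% mitochondrial UMIs. Members had at least 1 UMI of at least 2 of the 3 genes C1qa, C1qb and C1qc, at least 1 UMI of Csf1r and 0 UMIs of Gpnmb, Cd79a, Cd3e, Epcam, Clec4f and Prg4. Members numbered 2677 of the 93055 tissue barcodes that passed the filter (2.88%, exact 95% interval 2.77 to 2.99%), in 11 libraries. Members were chosen by these measured values, so the levels of C1q and Csf1r, and every comparison of members with other barcodes, are given as descriptions without a test.

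All mice carried Prom1-CreERT2, a recombinase that tamoxifen switches on in cells using the Prom1 promoter, and Rosa26ZSG, a green reporter that recombination turns on. Mice were labelled wild type (wt), heterozygous (Nalcn-het) or null (Nalcn-null) for Nalcn, the sodium leak channel gene. The Nalcn allele was conditional, so its recombination was limited to Prom1-expressing cells and their descendants. Each library pooled kidney, liver, lung and stomach with epididymis in males or uterus in females, and barcodes were not assigned to organs, since the hashtag antibodies that marked them were left aside. The wt libraries were wt 1 and wt 2 (male, 571 days), wt 3 (male, 608 days), wt 4 (female, 611 days) and wt 5 (female, 654 days). Libraries het 1 and het 2 were male and 551 days old, null 2 was male and 552 days old, and null 3 was labelled female and 611 days old. The title of null 3 names no genotype, so 1 of the 2 null libraries rests on a strain entry alone. A male library of 610 days titled het 3 has a strain entry of null, and a female library of 647 days titled null 1 has a strain entry without a Nalcn allele. Both of these went into no comparison of groups. The 9 libraries with a group held 2156 members, 1330 in wt, 413 in het and 413 in null. The labels name no animals, and wt 1 with wt 2 and het 1 with het 2 share age and sex. They may come from the same mouse, so the p-values measure the spread between libraries, which may be technical.

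C1q is the recognition unit that starts the classical complement pathway. Its A, B and C chains come from neighboring genes, and macrophages of tissues are a main source of the protein. Resident macrophages depend on signals through Csf1r, clear dead cells, recycle iron and lipid, and can present antigen on major histocompatibility complex (MHC) class II. Classical monocytes that enter a tissue carry Ccr2 and Ly6c2 and lose them as they turn into macrophages.

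Library totals ran from 8571019 to 139793927 UMIs. Members held 236699 to 2175825 UMIs per library, and the median member held 1238.5 to 7824 UMIs and 678.5 to 2523 genes. A pair of libraries stood apart. Library wt 5 had 287 passing barcodes, the fewest, and its members were the deepest. Library null 3 was labelled female with uterus, yet its members held 49 UMIs of Y-linked genes beside 692 of Xist, and its other barcodes held 6376 CPM (counts-per-million of UMIs) of the epididymal gene Spag11b. The other 3 female libraries held no Y-linked UMI in members and at most 12.2 CPM of Spag11b in other barcodes. For comparisons of groups, values without wt 5 or null 3 are given beside the results where they bear on the direction or the call. Nalcn itself was at 0 UMIs in the members of all 11 libraries, among 8351690 UMIs, which allows a level of up to 0.359 CPM. In other barcodes its mean was 0.136 CPM in wt, 0.122 CPM in het and 0.285 CPM in null, so the genotype labels could not be checked at this depth. Prom1, whose promoter drives the recombinase, had 11 UMIs in all members together.

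The 3 C1q genes lie side by side on the minus strand of chromosome 4 (mm10, GENCODE vM21). C1qb spans chr4:136880129-136886187, C1qc chr4:136889804-136893065 and C1qa chr4:136895917-136898803. The RefSeq promoters of C1qb (chr4:136886151-136886450) and C1qc (chr4:136892865-136893164), 250 bases before to 50 after the start on GRCm38.p6 and read on the minus strand, are shown because their transcripts define the population. Capitals mark GAGGAA, the core of the site of the myeloid factor PU.1 (TTCCTC where it lies on the other strand), and TGCTGA, the half-site of MAF factors. Both motifs were searched on both strands, and they did not overlap. Positions are counted from the RefSeq starts. That of C1qc lies inside the GENCODE span of the gene, so part of its promoter window lies within that span.
C1qb: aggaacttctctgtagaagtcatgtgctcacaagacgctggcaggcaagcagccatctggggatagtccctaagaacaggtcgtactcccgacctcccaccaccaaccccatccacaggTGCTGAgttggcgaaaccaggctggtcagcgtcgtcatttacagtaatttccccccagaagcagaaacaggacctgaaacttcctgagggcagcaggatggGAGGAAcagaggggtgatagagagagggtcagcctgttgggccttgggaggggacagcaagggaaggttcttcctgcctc
C1qc: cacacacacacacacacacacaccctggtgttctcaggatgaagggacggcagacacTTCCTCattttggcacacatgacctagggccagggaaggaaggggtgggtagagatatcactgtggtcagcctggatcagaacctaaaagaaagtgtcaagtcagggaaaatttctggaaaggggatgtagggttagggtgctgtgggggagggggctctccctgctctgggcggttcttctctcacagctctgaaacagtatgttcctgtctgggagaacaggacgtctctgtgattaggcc
GAGGAA began at position -30 from the start of C1qb and, on the opposite strand, at -193 from that of C1qc, and TGCTGA began at -131 from the start of C1qb. Of 32851 promoters of this length, 28.3% held GAGGAA and 19.5% held TGCTGA.

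The label was checked against macrophage genes that the rule had not used. Of these, Ms4a7, Aif1 and Mgl2 are among the markers given for these cells. Levels are UMIs summed over the members of a library, scaled to CPM. Ms4a7, a membrane protein of macrophages, ran from 284 to 641 CPM with a median of 375 CPM over the 11 libraries. Aif1, the calcium-binding protein also called Iba1, ran from 329 to 861 CPM. Adgre1, the F4/80 antigen, lay between 226 and 477 CPM, and Mertk, a receptor for dying cells, between 27.0 and 109.7 CPM. All of these were present in every library. They were set beside other populations of the tissue libraries, each by its median over libraries with at least 20 such barcodes. C1q- and Csf1r-positive barcodes whose single excluded gene was Gpnmb, a gene of lipid-laden macrophages, gave the Gpnmb-positive barcodes (1116, in 4 libraries with enough of them). Those whose single excluded gene was Clec4f, a lectin of liver Kupffer cells, gave the Clec4f-positive barcodes (124, in 3 libraries). Csf1r-positive barcodes with Ly6c2 and no C1q were taken as monocytes (1062, in 10 libraries), and Cd79a-positive barcodes without Csf1r as B cells (9930, in 11 libraries). Member medians are over all 11 libraries. Those of Gpnmb-positive barcodes are over wt 2, het 1, het 2 and null 2. Those of Clec4f-positive barcodes are over wt 1, wt 3 and the library titled het 3. Medians, and counts made from them, therefore mix differences between libraries with differences between populations. Ms4a7 was at 365 CPM in Gpnmb-positive barcodes, 89.9 CPM in Clec4f-positive barcodes, 2.55 CPM in monocytes and 6.28 CPM in B cells. By median, over the 11 macrophage identity genes that the rule did not use, members were above B cells for 11, monocytes for 8, Gpnmb-positive barcodes for 7 and Clec4f-positive barcodes for 3, and below them for 0, 3, 4 and 8. Among genes of other cells, members were above Gpnmb-positive barcodes for 5 of 5 alveolar type 2, 6 of 6 endothelial and 3 of 7 fibroblast genes. They were above monocytes for 5, 1 and 6 of these, and above B cells for 0 in each list. The counts against monocytes and Gpnmb-positive barcodes are therefore not read as marks of the label. Mgl2, a sugar-binding lectin among the markers given for these cells, had an uneven level, from 34.5 CPM in wt 5 to 436 CPM in wt 1. The 7 listed dendritic cell genes summed to 65.6 to 170.8 CPM in members, and to 86.4 to 159.9 CPM in other barcodes of the same libraries. Flt3 was at 1.80 to 11.1 CPM, Zbtb46 at 1.49 to 24.7 CPM, Xcr1 at 0 to 28.4 CPM and Ccr7 at 2.99 to 49.6 CPM, while Cd209a reached 59.7 CPM, Siglech 84.2 CPM and Clec9a 101 CPM. By median, members were above Gpnmb-positive barcodes for 7 of these genes, Clec4f-positive barcodes for 6, monocytes for 5 and B cells for 4, and their part in other values was not tested.

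The C1q and Csf1r levels that the rule used were C1qa at 2087 to 5150 CPM, C1qb at 1633 to 5038 CPM, C1qc at 1345 to 2683 CPM and Csf1r at 559 to 912 CPM. All 3 C1q genes had a UMI in 2274 members (84.9%) and exactly 2 in 403. At the edge of the rule, members with exactly 2 C1q genes had a median of 212 CPM of Ms4a7 over 9 libraries, and barcodes just outside it, with exactly 1 C1q gene, had 13 CPM over 6 libraries. Cd74, the chaperone of MHC class II, was at 13076 CPM just inside and 5330 CPM just outside. The step that removed barcodes with genes of other cells was large. Of 4748 C1q- and Csf1r-positive barcodes it took 2071, of which 1526 carried Gpnmb, 454 Cd79a, 214 Epcam, 197 Cd3e, 136 Clec4f and 50 Prg4, some with several. Of the 1116 lost to Gpnmb alone, 931 (83.4%) were in wt 2. Members are therefore C1q-positive macrophages without a captured Gpnmb or Clec4f transcript, and not all macrophages of these organs.

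MHC class II genes were higher in members than in their nearest neighbors. Cd74 had a median of 15061 CPM in members, from 6924 CPM in null 2 to 22585 CPM in het 2. It was at 1865 CPM in Gpnmb-positive barcodes, 6339 CPM in Clec4f-positive barcodes, 2393 CPM in monocytes and 5988 CPM in B cells, and members were the higher in every library where both were counted. H2-Ab1, a chain of the class II molecule, was at 5704 CPM in members against 609.7, 2399, 865 and 1942 CPM in the same order. Ciita, the master regulator of class II transcription, was at 153 CPM in members against 7.98, 69.4, 24.3 and 84.7 CPM. Of the 13 listed genes of class II presentation, the member median was above Gpnmb-positive barcodes for 12, Clec4f-positive barcodes for 11, monocytes for 13 and B cells for 10.

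Of the 10 listed genes of Cx3cr1 phagocytes, the member median was above monocytes and B cells for 10, Gpnmb-positive barcodes for 8 and Clec4f-positive barcodes for 6. Of 12 C-type lectins it was above Gpnmb-positive barcodes for 11, Clec4f-positive barcodes for 8, monocytes for 10 and B cells for 12. Gpnmb-positive barcodes were the deeper, with 13616632 UMIs in 1116 barcodes against 8351690 UMIs in 2677 members. The member median was above them as well for 5 of 5 erythroid, 6 of 6 neutrophil and 3 of 7 fibroblast genes. It was above Clec4f-positive barcodes for 5, 5 and 7 of these, but for 1 of 6 endothelial and 0 of 6 hepatocyte genes. Against monocytes it was above for 4, 0 and 6 of the same 3 lists. Counts of listed genes against these 3 populations, class II included, are therefore not read as particular to a list. The part of free RNA was not tested. Cx3cr1, the fractalkine receptor, was at 384 CPM in members, 42.2 CPM in Gpnmb-positive barcodes, 63.6 CPM in Clec4f-positive barcodes and 128 CPM in monocytes. Mgl2 was at 283 CPM in members and at most 17.4 CPM in the other populations. Retnla, a secreted protein of alternatively activated macrophages, was at 277 CPM in members and at most 3.92 CPM in the others. Lipid-associated genes were lower in members than in Gpnmb-positive barcodes, and Kupffer cell genes lower than in Clec4f-positive barcodes. Trem2, a lipid-sensing receptor, was at 254 CPM in members and 1927 CPM in Gpnmb-positive barcodes, and Spp1, the matrix protein osteopontin, at 202 and 5669 CPM. The Gpnmb-positive barcodes were above members for 11 of 11 listed lipid-associated genes, Gpnmb included, which was used to choose them, whereas members were above Clec4f-positive barcodes for 8, monocytes for 9 and B cells for 10 of the 11. The iron exporter Slc40a1 was at 28.6 CPM in members and 1588 CPM in Clec4f-positive barcodes, and Cd5l, a secreted Kupffer cell protein, at 36.0 and 4181 CPM. The Clec4f-positive barcodes were above members for 10 of 10 Kupffer cell genes, Clec4f included, whereas members were above Gpnmb-positive barcodes for 7 and monocytes and B cells for 8 each. Monocyte genes were partly present. Ccr2 was at 243 CPM in members and 398 CPM in monocytes, whereas Plac8 was at 155 and 2747 CPM and Thbs1, a secreted matrix protein, at 205 and 2487 CPM.

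Among secreted signals, members held Ccl8, a chemokine that draws monocytes, at a median of 564 CPM (142 to 1398 CPM) against 692 CPM in Gpnmb-positive barcodes, 29.8 CPM in Clec4f-positive barcodes, 0 in monocytes and 1.71 CPM in B cells. Cxcl16, a membrane-bound chemokine, was at 402 CPM in members, 417 CPM in Clec4f-positive barcodes and 33.0 CPM in monocytes. Pf4, a chemokine also made by resident macrophages, was at 360.2 CPM in members and 7.11 CPM in monocytes. In complement beyond C1q, C3ar1, a receptor of complement fragments, was at 178 CPM in members and 8.14 CPM in monocytes. Cfp, which stabilizes the alternative pathway convertase, was at 108 CPM in members and 805 CPM in Clec4f-positive barcodes. The complement list, C1q included, had a higher median in members for 18 of 25 genes against monocytes and for 10 of 25 against Clec4f-positive barcodes. Apoe, the lipid carrier protein, was at 8755 CPM in members and at 12435 and 14572 CPM in Gpnmb-positive and Clec4f-positive barcodes.

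Because free RNA enters every droplet, the share of barcodes with a UMI was also read after thinning each barcode to 1000 UMIs, which left out 316 members (84 of wt, 33 of het, 64 of null and 135 of libraries without a group) and kept 2361. Cx3cr1 was seen in 32.3% of thinned members and 1.19% of thinned B cells, Ms4a7 in 26.3 and 0.855%, and Mgl2 in 19.8 and 0.592%. For Lyve1 the shares were 2.07 and 1.99%, and for the hepatocyte gene Alb 16.9 and 16.7%, so by these medians over libraries the shares for Lyve1 and Alb were at the level of background. In wt 5, Lyve1 was seen in 46.3% of thinned members. Before thinning, at a mean depth of 2541 UMIs per member and 2261 UMIs per B cell (median over libraries), the shares were 45.3 and 1.72% for Cx3cr1, 43.7 and 1.10% for Ms4a7, and 4.80 and 2.75% for Lyve1.

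**Figure D1:**
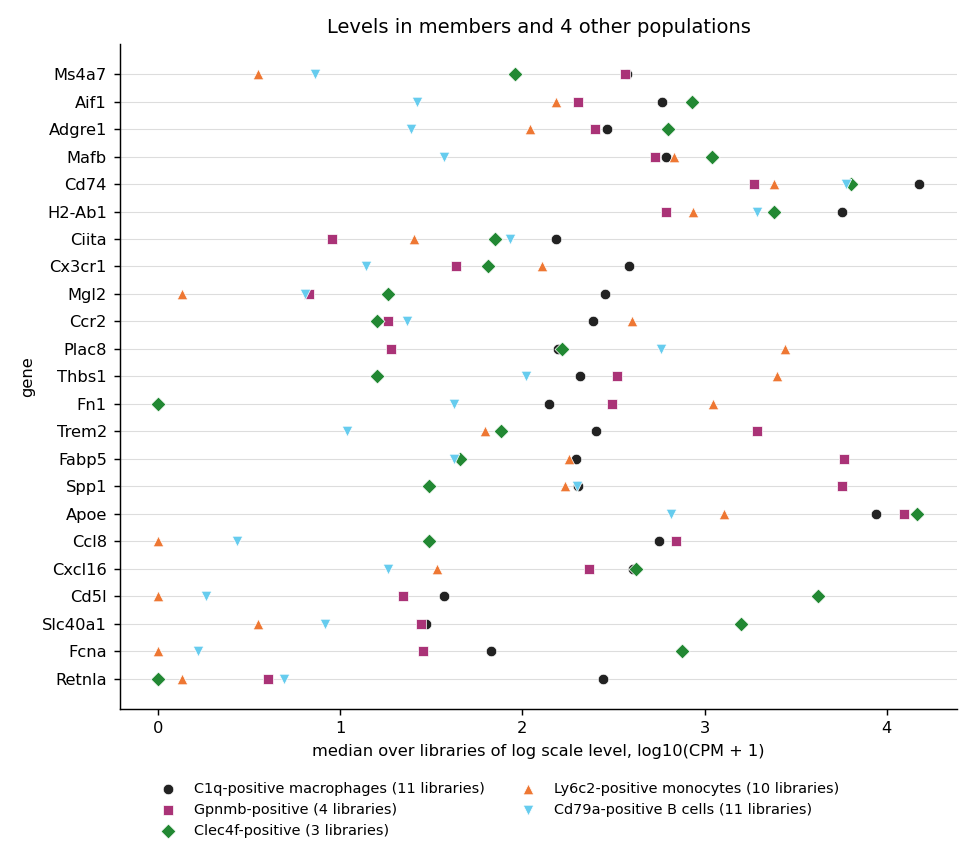
Median level of 23 genes in members and 4 other populations of the same tissue libraries, as log10(CPM + 1) over libraries with at least 20 barcodes of the population (11 libraries for members). Cd74 was highest in members, at 15061 CPM, and the lipid-associated gene Spp1 was highest in Gpnmb-positive barcodes, at 5669 CPM.

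Levels in members varied between libraries, and wt 5 lay far from the rest in several genes. Cd74 was at 21193, 13777, 16083, 14619 and 9789 CPM in wt 1 to wt 5, 16804 and 22585 CPM in het 1 and het 2, and 6924 and 11516 CPM in null 2 and null 3. The null libraries were at the low end and overlapped the wt libraries. Lyve1, the hyaluronan receptor of perivascular macrophages, was at 17.9 to 63.4 CPM in 10 libraries and at 685 CPM in wt 5. Folr2, a folate receptor found on the same cells, was at 412 CPM in wt 5, and F13a1, a clotting factor subunit of resident macrophages, at 2836 CPM. Saa3, an acute-phase protein, had 8477 CPM in wt 5 against at most 148 CPM elsewhere, and Cxcl13, which attracts B cells, had 1367 CPM. Library wt 5 held 56 members. Cx3cr1 was lowest in wt 5 (197 CPM) and highest in null 3 (659.8 CPM).

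**Figure D2:**
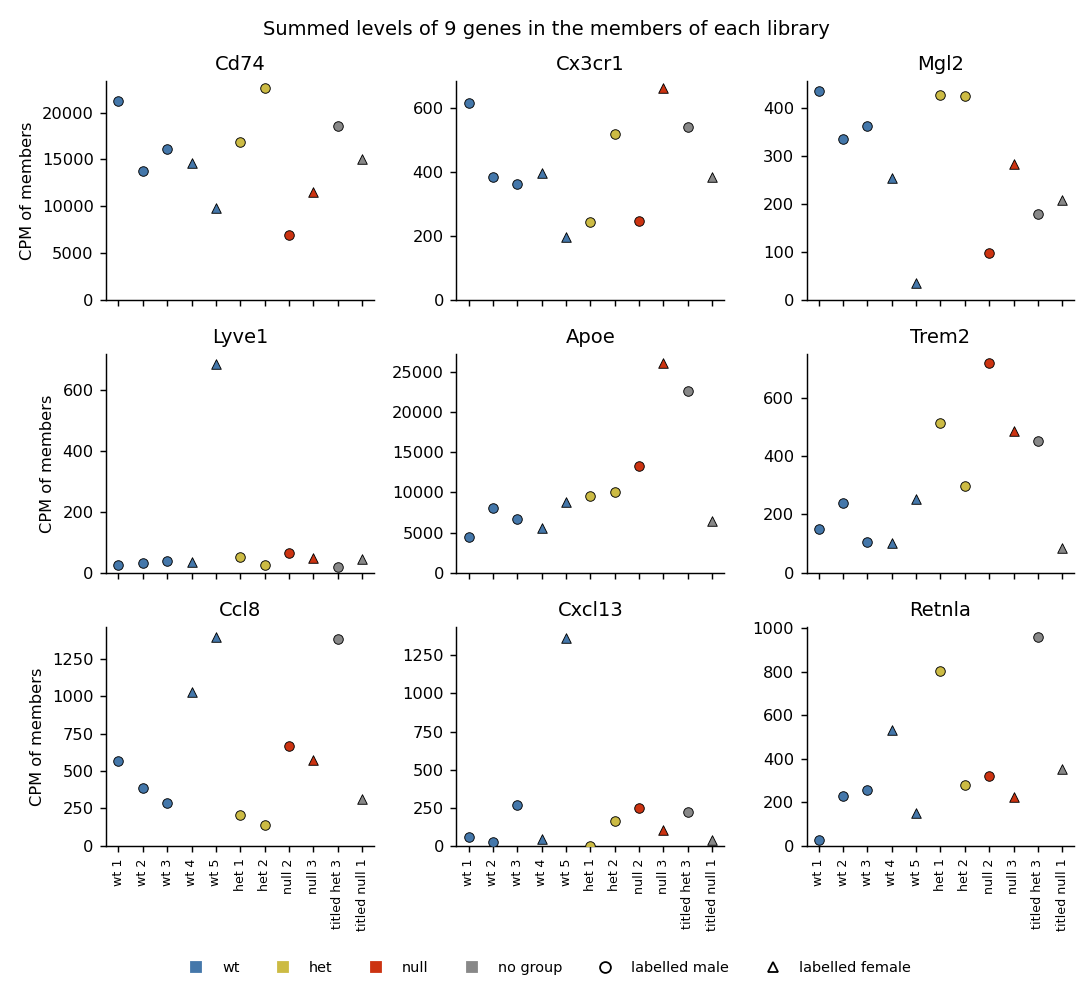
Level in members of 9 genes (Cd74, Cx3cr1, Mgl2, Lyve1, Apoe, Trem2, Ccl8, Cxcl13 and Retnla) in CPM for each of the 11 tissue libraries, colored by group. Lyve1 and Cxcl13 stand out in wt 5 (685 and 1367 CPM), and Apoe was highest in null 3 (26124 CPM).

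Members differed in the genes they carried. After thinning, 581 of 2361 members (24.6%) carried Ccr2 or Ly6c2, 809 (34.3%) Cx3cr1, 572 (24.2%) Mgl2, 75 (3.18%) the cell-cycle genes Mki67 or Top2a, and 47 (1.99%) at least 2 of the resident macrophage genes Lyve1, Folr2, Timd4 and Cd163. Of 7504 thinned B cells, 7.74% carried Ccr2 or Ly6c2 (1.92% Ccr2 and 6.14% Ly6c2), 1.04% Cx3cr1, 0.613% Mgl2, 7.57% Mki67 or Top2a and 0.0267% the resident set. Unthinned members of every library held more UMIs of Ccr2 than of Ly6c2, from 945 against 40 in wt 1 to 88 against 45 in the library titled null 1. The group with Ccr2 or Ly6c2 is therefore mainly one with Ccr2. The share of members with Mki67 or Top2a was under that of B cells. B cells can divide themselves and were above members by median for 6 of 10 listed proliferation genes. They are therefore no measure of background for these genes, and whether members were cycling was not tested. Before thinning the counts among 2677 members were 1025, 1408, 1033, 171 and 121. Both the resident set and Ccr2 or Ly6c2 were seen in 0 thinned members and in 10 before thinning, and 1733 thinned members (73.4%) had neither. The share with Ccr2 or Ly6c2 ran from 11.8% in null 2 to 41.1% in wt 1, with 25.8 ± 10.2% in wt (SD, n = 5), 24.8 ± 13.8% in het (SD, n = 2) and 14.0 ± 3.13% in null (SD, n = 2). The null libraries lay at the low end of the wt range and overlapped it. The share with the resident set ran from 0.601% in wt 1 to 20.4% in wt 5.

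Members with Ccr2 or Ly6c2 held more class II transcript and less of several scavenging genes than members without, in the 10 libraries with at least 10 members on each side (all but wt 5). Of 167 listed genes seen in at least 5% of members, 5 were higher by mean UMIs per 1000 in every one of these libraries, and all 5 were class II genes. Cd74 had a median of 19.7 UMIs per 1000 with and 16.1 without, H2-Aa 7.91 and 6.34, H2-Ab1 8.18 and 5.68, H2-Eb1 7.91 and 5.50, and H2-DMa, which helps to load peptide, 0.666 and 0.512. Another 21 genes were lower in every one of these libraries. Apoe was at 3.06 UMIs per 1000 with and 9.48 without, and Ctsd, the lysosomal protease cathepsin D, at 0.325 and 1.08. Trem2 was seen in 5.60% of members with and 16.4% without, Hmox1, which breaks down heme, in 5.18 and 13.7%, and Pf4 in 6.45 and 19.6%. Ccl8 was seen in 1.41 and 11.4%, and Abca1, which exports cholesterol, in 4.22 and 12.7%. The list of efferocytosis and lysosome genes had a lower median with Ccr2 or Ly6c2 for 16 of 19 genes, the immediate early list for 15 of 15 and the iron list for 7 of 7, against 115 of all 167. Of the genes that the rule used, C1qc was lower in every one of these libraries (1.44 and 1.79 UMIs per 1000), while C1qa was higher in 3 and lower in 7.

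**Figure D3:**
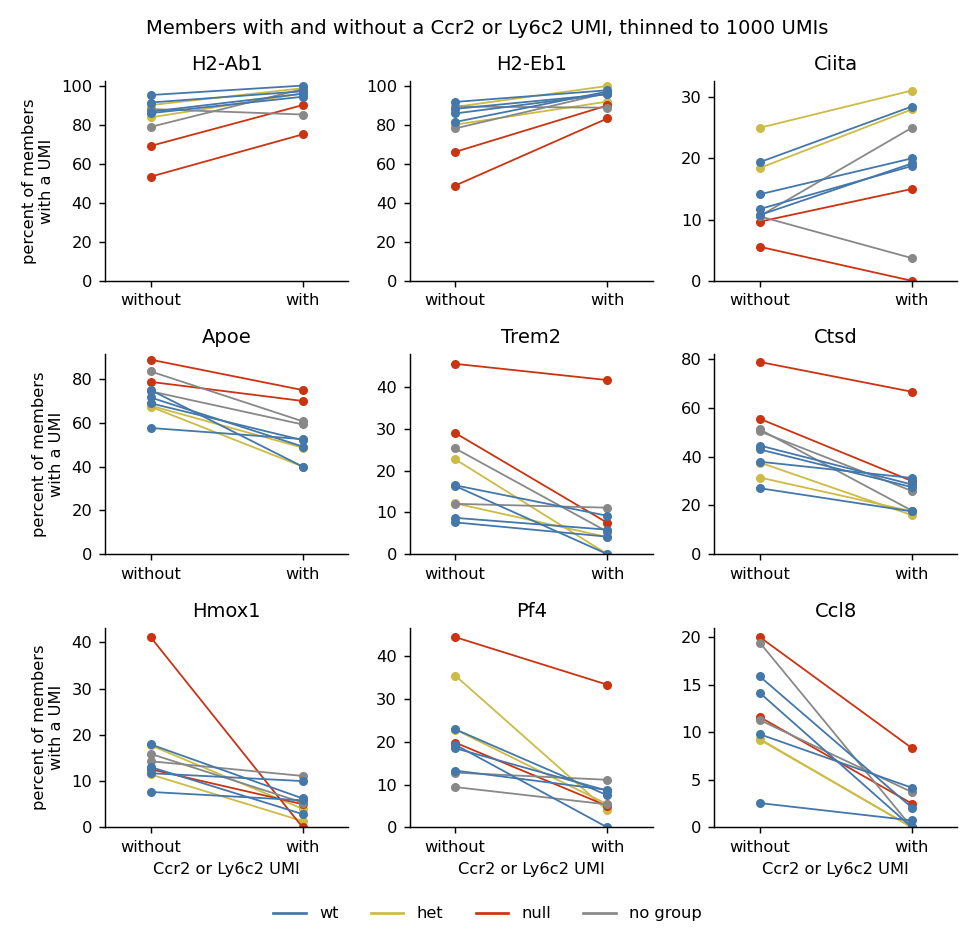
Percent of members thinned to 1000 UMIs with a UMI of 9 genes (H2-Ab1, H2-Eb1, Ciita, Apoe, Trem2, Ctsd, Hmox1, Pf4 and Ccl8) among members with and without Ccr2 or Ly6c2, with a line for each of 10 libraries. H2-Ab1 had a median of 95.9% with and 86.3% without, and Ccl8 one of 1.41% with and 11.4% without.

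Members with Cx3cr1 (10 libraries) were higher in every one of them for Tmem119, a gene also used to mark microglia (6.16 against 0.786% of members), and Ciita (20.5 against 10.2%). The same held for C1qa (3.96 against 2.74 UMIs per 1000) and C1qc (2.17 against 1.51), both used by the rule to choose members. They were lower in every one for the neutrophil attractant Cxcl2 (9.51 against 29.3%), Hmox1 (6.63 against 15.4%), the complement receptor C5ar1 (9.17 against 17.6%) and F13a1 (1.19 against 8.32%). Members with Mgl2 (9 libraries) were higher in every one of them for Cd74, H2-Aa, H2-Ab1 and H2-Eb1, for Ccr2 (32.5 against 18.3%) and for Cxcl16 (45.7 against 33.5%). They were lower in every one for Hmox1 (2.86 against 13.8%), Apoe (3.84 against 9.17 UMIs per 1000), Trem2 (7.62 against 12.6%) and Ccl8 (3.28 against 10.3%). The resident set could be read in wt 5 alone, with 11 members against 43, and so rests on 1 library. There, Mrc1, the mannose receptor, was seen in 81.8 against 48.8%, F13a1 in 100 against 72.1%, Ccr2 in 0 against 14.0% and Cx3cr1 in 0 against 18.6%.

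The share of members among passing barcodes was compared to ask whether Nalcn genotype or sex went with the number of these cells captured. Shares were 5.79, 2.95, 2.57, 1.89 and 19.5% in wt 1 to wt 5, 2.27 and 6.0% in het 1 and het 2, and 1.63 and 2.89% in null 2 and null 3. Library wt 5 lay far above the rest, with 56 of 287 barcodes (exact 95% interval 15.1 to 24.6%), and the groups overlapped. Only 287 of its 1856 deposited barcodes passed the filter. As a share of all deposited barcodes wt 5 did not stand apart, at 3.02% against 3.30% in wt 1 and 2.63% in het 2. The null share was 2.26 ± 0.894% (SD, n = 2) against 6.54 ± 7.40% in wt (SD, n = 5), a difference of -4.28 percentage points (exact two-sided permutation p = 0.476), or of -1.04 without wt 5 (exact permutation p = 0.6). The het share was 4.14 ± 2.64% (SD, n = 2), a difference of -2.41 from wt (exact permutation p = 0.762), which turned to 0.834 without wt 5. The smallest p that these group sizes allow is 0.048. Female libraries had 8.10 ± 9.90% (SD, n = 3) and male libraries 3.54 ± 1.88% (SD, n = 6), a difference of 4.56 (exact permutation p = 0.262, smallest possible 0.0119), of -1.14 without wt 5 and of 7.17 without null 3. No difference in share passed the test.

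**Figure D4:**
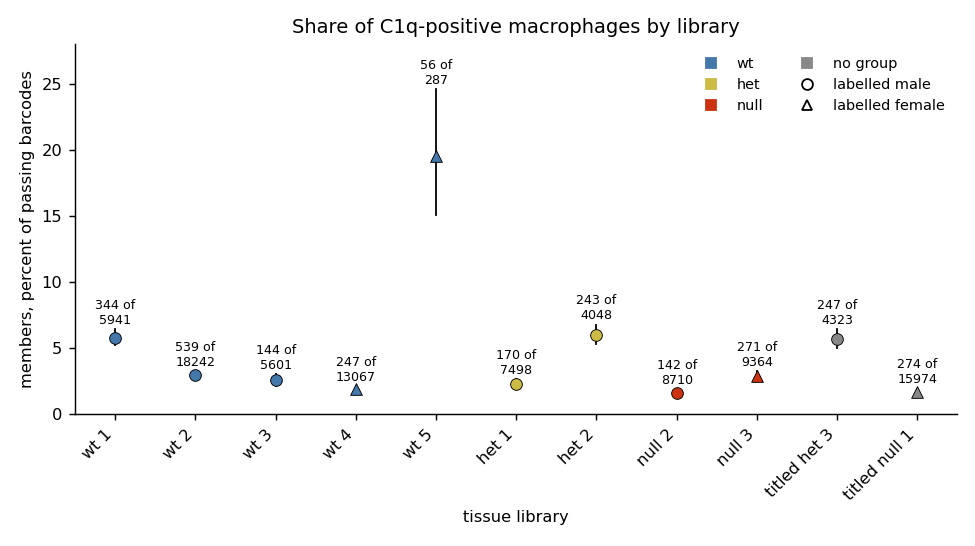
Members as a percent of passing barcodes in each of the 11 tissue libraries, with exact 95% intervals that cover counting error only and the counts printed beside the points. Library wt 5 lies at 19.5% and the other 10 between 1.63 and 6.0%. As a share of all deposited barcodes, not drawn, wt 5 was at 3.02% and wt 1 at 3.30%.

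Null and wt members were compared to ask whether loss of Nalcn in Prom1-lineage cells went with a change in these macrophages. In members, 3 genes were higher in null, and none of them was a listed macrophage gene. They were Spag11b, a defensin-like protein of the epididymis, Cst11, an epididymal cystatin, and 9230104L09Rik, a cystatin-like gene. Of 7431 genes tested, these 3 were called (0.0404%) by edgeR quasi-likelihood test with Benjamini-Hochberg adjustment at 0.05, and 428 had an unadjusted p under 0.05 (5.76%). All 3 calls were lost when the barcodes of highest Scrublet doublet score were removed, in a share set by an assumed doublet rate. They were also lost when wt 1 with wt 2 and het 1 with het 2 were each taken as 1 sample. The same held when Csf1r was not required and when no gene was required to be absent. With at least 500 genes and a limit of 10% on mitochondrial UMIs, 1 of the 3 was still called. That setting also left out wt 3 and wt 5, which held 7 and 8 members, under the minimum of 20. Over all alternatives the log2 difference ran from 4.55 to 11.9 for Spag11b, 4.64 to 10.8 for Cst11 and 3.71 to 10.5 for 9230104L09Rik. Spag11b was at 17.5, 14.2, 8.20, 0 and 0 CPM in wt 1 to wt 5, 37.8 and 54.0 CPM in het 1 and het 2, and 342 and 534 CPM in null 2 and null 3. The null libraries stood above all of these, and the log2 difference from wt was 5.78 (SE 0.61, edgeR adjusted p = 0.0137). Cst11 was at 0 to 4.09 CPM in wt and at 59.1 and 241 CPM in null 2 and null 3 (log2 5.82, SE 0.70, edgeR adjusted p = 0.0234). 9230104L09Rik was at 0 to 3.51 CPM in wt and at 25.3 and 205 CPM in null 2 and null 3 (log2 5.46, SE 0.75, edgeR adjusted p = 0.0481).

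All 3 epididymal transcripts were also higher in the remaining barcodes of the null libraries. There the mean was 6350 CPM in null and 278 CPM in wt for Spag11b, 1897 and 68.4 CPM for Cst11, and 901 and 33.8 CPM for 9230104L09Rik. In monocytes Spag11b was at 107 CPM in null and 7.13 CPM in wt. The 9 listed epididymal genes summed to 1483 to 2976 CPM in null members and 0 to 219 CPM in wt members, and to 29798 to 30016 CPM and 8.19 to 6105 CPM in the other barcodes of the same groups. In het they summed to 171 to 259 CPM in members and 12526 to 24778 CPM in other barcodes. The 7 of them that were tested all lay above 0 in null members, with a median log2 difference of 5.44 against -0.01 over all genes, and 5 of 7 did without null 3 (median 3.69). The part of the other barcodes in the difference was not tested. Without null 3, whose content goes against its labels, only Spag11b of the 3 stayed past the threshold (log2 4.56, edgeR adjusted p = 0.00401). Without wt 2 or without wt 3 no gene was called by edgeR, with 416 and 378 at an unadjusted p under 0.05, and without null 2 the count was 11.

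**Figure D5:**
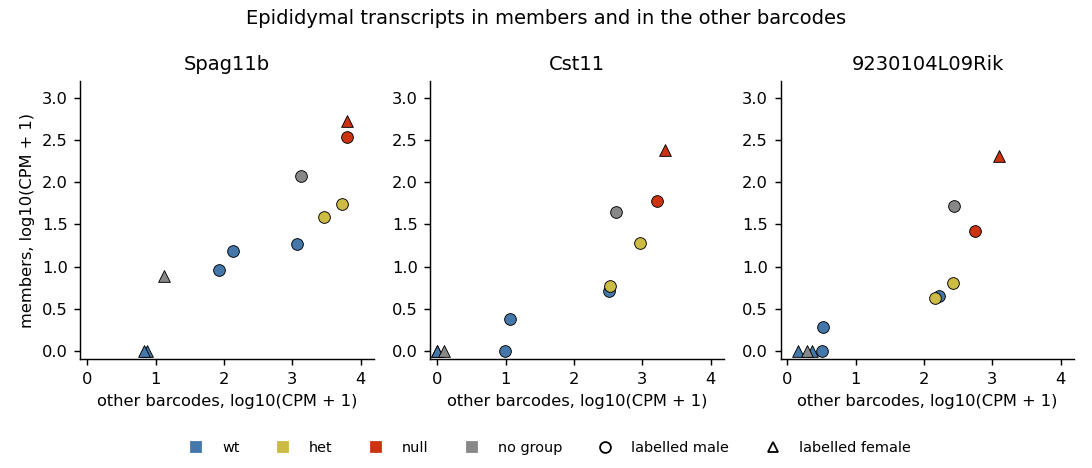
Level of Spag11b, Cst11 and 9230104L09Rik in members against the other barcodes of the same library, as log10(CPM + 1), with a point per library colored by group. In members, Spag11b reached 342 and 534 CPM in the null libraries and stayed at or under 17.5 CPM in wt, while in other barcodes it reached 6323 and 6376 CPM in null.

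Among listed macrophage genes none passed in null, and Apoe, Trem2 and Mfge8 had unadjusted p-values of 8.44e-04, 8.56e-04 and 0.00119 by edgeR. Apoe was at 4418, 8106, 6748, 5599 and 8755 CPM in wt 1 to wt 5 and at 13316 and 26124 CPM in null 2 and null 3. The groups did not overlap, as was so for 11.6% of all genes, and the log2 difference was 1.47 (SE 0.32, edgeR adjusted p = 0.397). Trem2 was at 149.7, 240.4, 104, 102 and 254 CPM in wt 1 to wt 5 and 718 and 486 CPM in null 2 and null 3 (log2 1.82, SE 0.40, edgeR adjusted p = 0.397). The groups again did not overlap, and het 1 and het 2, at 514 and 297 CPM, were above every wt library. Het and wt did not overlap for 13.2% of all genes, and both comparisons use the same wt libraries. Mfge8, a bridge between dying cells and phagocytes, had 73.8 ± 9.15 CPM in null (SD, n = 2) and 21.5 ± 17.6 CPM in wt (SD, n = 5), with a log2 difference of 2.17 (SE 0.49, edgeR adjusted p = 0.442). In other barcodes Mfge8 was at 299 CPM in null and 108 CPM in wt. Cd74 was at 9220 ± 3247 CPM in null (SD, n = 2) and 15092 ± 4132 CPM in wt (SD, n = 5), a log2 difference of -0.64 (SE 0.34, edgeR adjusted p = 0.840). Without null 3 the log2 differences were 1.05 for Apoe, 2.11 for Trem2, 1.24 for Mfge8 and -1.28 for Cd74, none passing. Apoe and Trem2 passed with DESeq2 (adjusted p = 0.0283 and 0.0388), and Apoe, Trem2 and Mfge8 passed by edgeR without a filter on low counts (adjusted p = 0.00166, 1.27e-06 and 3.07e-05), among 21 alternatives for each.

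By fitted sign in null against wt, the 22 tested genes of efferocytosis and lysosome split 15 above and 7 below 0 with a median log2 of 0.27, the 11 of iron handling 10 and 1 with 0.51, and the 10 lipid-associated genes 6 and 4 with 0.41. MHC class II presentation split 1 and 12 with -0.31, interferon-stimulated genes 2 and 12 with -0.68, and complement (C1q of the rule included) 4 and 14 with -0.25. Monocyte genes split 3 and 8 with -0.37, and chemokines 8 and 10 with -0.04. The 15 macrophage identity genes, which include C1qa, C1qb, C1qc and Csf1r of the rule, split 8 and 7 with 0.01. Without null 3, which leaves 1 null library, chemokines split 13 and 5 (median 0.61) and complement 12 and 8 (0.07), so both turned sign. Efferocytosis and lysosome then split 19 and 3 (0.88), lipid-associated genes 8 and 2 (0.60), iron handling 9 and 2 (0.70), MHC class II 2 and 11 (-0.81) and interferon-stimulated genes 2 and 12 (-0.49). Over all genes 3667 lay above and 3764 below 0. No gene passed as lower, and the 3 of smallest unadjusted p were Gbp5, an interferon-induced GTPase (log2 -2.08, edgeR adjusted p = 0.645), Ogn, a proteoglycan of connective tissue (log2 -4.35, edgeR adjusted p = 0.729), and Rraga, a GTPase of nutrient sensing at the lysosome (log2 -1.26, edgeR adjusted p = 0.758). Genes of other cells beside the epididymal ones had values away from 0 in members as well, with none called. The 4 tested hepatocyte genes all lay above 0 (median log2 2.13) and the 5 tested fibroblast genes all below 0 (median log2 -2.94), and their part in the values of these genes was not tested.

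No gene was called between het and wt members (0% of 7431 by edgeR, 365 or 4.91% with an unadjusted p under 0.05, and 1 called by DESeq2). The 3 higher genes of smallest unadjusted p were Hpgds, the prostaglandin D synthase (212 against 106 CPM), Plod1, a collagen-modifying enzyme (47.9 against 26.8 CPM), and the clock-output factor Dbp (42.5 against 8.21 CPM), none passing. The 3 lower ones were Pdzk1ip1 (10.4 against 53.5 CPM), Atp6v0d2, a subunit of a proton pump (17.8 against 40.4 CPM, with a sign that turned when no gene was required to be absent), and Ccl5, a chemokine of lymphocytes. Ccl5 was at 16.4 and 36.0 CPM in het 1 and het 2 and 130 to 387 CPM in wt (log2 -3.10, edgeR adjusted p = 0.980). Ccl8 was at 205 and 142 CPM in het and 284 to 1398 CPM in wt (log2 -1.48, edgeR adjusted p = 0.980), and its sign turned when no gene was required to be absent. Adgre1 was at 442 ± 50.6 CPM in het (SD, n = 2) and 266 ± 25.8 CPM in wt (SD, n = 5), a log2 difference of 0.71 (edgeR adjusted p = 0.980). Het and wt did not overlap in Ccl5, Ccl8 or Adgre1, as was so for 13.2% of all genes.

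Transcripts of several other cell types were lower in het than in wt members by fitted sign. Fibroblast genes split 1 above and 4 below 0 with a median log2 of -4.63, neutrophil genes 0 and 5 with -4.20, uterus and muscle genes 0 and 2 with -3.24, stomach genes 0 and 4 with -2.25 and kidney tubule genes 0 and 5 with -1.36, whereas the 4 hepatocyte genes all lay above 0 with 0.73 and the epididymal genes split 4 and 3 with 1.11. S100a8, a calcium-binding protein of neutrophils, was at 24.6 and 9.01 CPM in het 1 and het 2 against 171, 967, 721, 92.2 and 321 CPM in wt 1 to wt 5 (log2 -4.95, SE 1.19, edgeR adjusted p = 0.980). In other barcodes S100a8 was at 162 CPM in het and 783 CPM in wt. The neutrophil list summed to 55.8 to 96.9 CPM in het members and 271 to 2601 CPM in wt members, which did not overlap. The fibroblast sums did overlap, at 90.3 to 160.3 CPM in het and 29.8 to 503 CPM in wt, as did those of kidney tubule, stomach, and uterus and muscle. Of the fibroblast gene Col1a1, wt 2 held 250 UMIs and the other wt libraries 1 to 17. None of these lists held a called gene, and the part of these cell types in other values was not tested. By fitted sign the macrophage identity list, which includes the C1q genes and Csf1r of the rule, split 14 above and 1 below 0 with a median log2 of 0.42. The Lyve1 and Folr2 list split 8 and 4 with 1.01, MHC class II 10 and 3 with 0.33, and C-type lectins 10 and 2 with 0.41. Monocyte genes split 2 and 9 with -0.98, alveolar macrophage genes 0 and 11 with -2.12 and interferon-stimulated genes 1 and 13 with -0.82. Over all genes 3872 lay above and 3559 below 0, with a median of 0.02. Null and het share the wt libraries as controls, and the het libraries (551 days) were younger than every wt library (571 to 654 days).

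Female and male members were compared with genotype in the fit, and sex cannot be told apart from uterus or epididymis in the pool. Only Xist, the transcript that silences an X chromosome, was called (0.0135% of 7431 genes by edgeR, with 445 or 5.99% at an unadjusted p under 0.05). It was at 2185, 1788 and 1165 CPM in wt 4, wt 5 and null 3 and at 0 in all 6 male libraries (edgeR adjusted p = 3.65e-04), and DESeq2 did not call it (adjusted p = 0.202). With 2662 UMIs against 0 and a floor of 3 counts over the male group it was at least 3164-fold higher. No listed macrophage gene passed. Ccl8 was at 1024, 1398 and 576 CPM in wt 4, wt 5 and null 3 and at 142 to 668 CPM in male libraries (log2 1.10, SE 0.36, edgeR adjusted p = 0.814), and the groups overlapped. Ccl12, a related monocyte attractant, was at 292 ± 105 CPM in female (SD, n = 3) and 108 ± 38.8 CPM in male libraries (SD, n = 6), a log2 difference of 1.27 (edgeR adjusted p = 0.814). Lgals3, the galectin of activated macrophages, was at 671 ± 82.3 CPM in female (SD, n = 3) and 1148 ± 302 CPM in male libraries (SD, n = 6), a log2 difference of -0.87 (edgeR adjusted p = 0.806). Without wt 5 the log2 differences were 0.74 for Ccl8, 0.94 for Ccl12 and -0.98 for Lgals3, none passing. Ccl12 and Lgals3 did not overlap between the sexes, as was so for 2.83% of all genes.

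For the Lyve1 and Folr2 list and for chemokines the direction between the sexes turned without wt 5. The Lyve1 and Folr2 list split 12 above and 0 below 0 in female members (median log2 1.38) with wt 5 and 3 and 9 without it (-0.14), and the 18 chemokines 15 and 3 (0.74) with and 7 and 11 without (-0.20). Complement genes, C1q of the rule included, split 14 and 4 (0.47) with and 11 and 6 (0.16) without, against 3683 above 0 of 7431 genes over all with wt 5. The Lyve1 and Folr2 list summed to 1068 CPM in wt 4 and 1187 CPM in null 3, inside the male range of 790.2 to 3574 CPM, and to 8774 CPM in wt 5. Lyve1 itself had a log2 difference of 2.77 (SE 0.92, edgeR adjusted p = 0.814) with that library and of -0.033 without it. F13a1 had 3.47 with and -0.060 without, Saa3 8.98 with and -1.30 without, and the complement receptor Vsig4 4.06 with and 0.72 without wt 5. Of smallest unadjusted p beside Xist were Tsix, its antisense partner (log2 7.84), and Gbp5 (log2 2.01), neither passing. On the male side they were Ddx3y, a Y-linked helicase (log2 -3.76), Anapc11, a subunit of the anaphase-promoting complex (log2 -1.13), and Spink8, an epididymal protease inhibitor (log2 -3.28), none passing. Without null 3, Ddx3y passed (log2 -9.49, edgeR adjusted p = 0.00314) and 4 genes were called in place of 1.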

How the data were processed

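The single-cell libraries were made with droplet 3′ chemistry. Reads were aligned to mm10 with Cell Ranger (2.1.1 in the submitters' processing notes, another version in the matrix headers) by the authors, who deposited filtered matrices of UMI counts per gene and barcode, not normalized. Hashtag counts were not used here.

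Members were found by the rule given above in 11 tissue libraries. Members and gene lists were chosen with earlier results of these data known. UMI counts of members were summed per library, since libraries and not cells are replicates, and tested in 9 libraries with edgeR 4.0.16 (quasi-likelihood test, TMM, filterByExpr) in 1 fit with genotype and sex, with Benjamini-Hochberg adjustment over 7431 genes at 0.05. Member shares were tested by permuting libraries (exact, two-sided). For shares of barcodes with a UMI, barcodes were thinned to 1000 UMIs. Intervals are exact binomial 95% intervals and, like the limits for 0 counts (3 counts), cover counting error only. Doublets were handled by ranking the passing barcodes of each library by Scrublet score. The top share was removed in 1 alternative, at an assumed rate of 0.8% per 1000 deposited barcodes, up to 25%. Of the members, 388 were in that share and were kept in the main results, and 1 barcode sequence was shared by 2 libraries. Replicate pairs differed by a chi-square per degree of freedom of 3.37 to 20.5, so none was merged.

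Named genes were members of 35 lists, of which 343 of 344 genes had a row, then up to 10 called genes per direction without overlap of the groups and, where fewer than 3 were called, the 3 of smallest unadjusted p. Alternatives were DESeq2 1.42.0, other scaling, filters, covariates and gates, and leaving out each library. Some listed genes are not reported here. The test was checked on simulated data.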

Additional observations from a re-analysis of the deposited data

Results flagged for a closer look

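Of 104 values checked for a library far from the others of its group, 22 stood apart by Dixon's criterion. Chance gives about 1 in 20 for independent, normally distributed values. Genes here were chosen with earlier results known, and many values came from the same library, so the count is not set against that rate. Most belonged to wt 5, the library with the fewest passing barcodes. Among the wt libraries, its share of members was 19.5% of passing barcodes against 1.89 to 5.79% in the others. Of all deposited barcodes the wt 5 share was 3.02%, against 0.887 to 3.30% in the others. In its members Lyve1 was at 685 CPM (26.9 to 38.3 in the others), Folr2 at 412 CPM (21.9 to 60.1), Timd4, a receptor for dying cells on resident macrophages, at 191 CPM (5.85 to 41.0) and F13a1 at 2836 CPM (33.3 to 116). Saa3 was at 8477 CPM (0 to 14.0), Vsig4 at 553 CPM (8.77 to 22.1), complement C4b at 985 CPM (28.1 to 166) and Cxcl13 at 1367 CPM (28 to 265). The monocyte attractants Ccl2 and Ccl7 were at 1341 CPM (57.4 to 321) and 1723 CPM (54.4 to 281). Members of wt 5 with at least 2 of Lyve1, Folr2, Timd4 and Cd163 made up 20.4% (0.601 to 1.57% in the others).

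Library null 2 stood apart among the 6 male libraries, where it was the only null library. Its members had Mgl2 at 97.2 CPM (336 to 436 in the others), and 7 of 102 thinned members (6.86%) carried Mgl2 (28.5 to 34.3%). Outside these 6 libraries the share with Mgl2 was 15.5% in the male library titled het 3. It was 1.85 to 19.8% in the female libraries with a group. In null 2 the share with the resident set was 5.88% (6 of 102 thinned members, 0.601 to 1.81% in the others). Its share with Mki67 or Top2a was 6.86% (7 of 102, 2.34 to 3.15% in the others). Thinned B cells, which can divide themselves, had 7.57%, and whether these members were cycling was not tested. The genes called between null and wt were among the flagged values and restate that comparison. Spag11b was at 342 CPM (8.20 to 54.0), Cst11 at 59.1 CPM (0 to 18.0) and 9230104L09Rik at 25.3 CPM (0 to 5.40).

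Single values also stood apart. 9230104L09Rik was at 3.51 CPM in wt 1 among the wt libraries (0 to 0.919 in the others). Cd163, a scavenger receptor for hemoglobin, was at 57.5 CPM in het 1 among the male libraries (6.43 to 18.8), and Ccl5 was at 385 CPM in wt 3 (16.4 to 149).

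Signal appeared outside the comparisons too. In the libraries of sorted ZsGreen-positive blood cells from mice without tumors (ntCZC), 38 of 2109 passing barcodes met the same rule (1.80%, exact 95% interval 1.28 to 2.46%), and in the library of blood mononuclear cells 0 of 679 did, which allows a share of up to 0.442%. The former were labelled wt, het and null at 551 to 649 days and the latter male and wt at 120 days, so these shares are not compared. The library titled het 3 with a strain entry of null had a share of 5.71% (5.04 to 6.45%), and that titled null 1 with a strain entry without a Nalcn allele 1.72% (1.52 to 1.93%).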

How the results depend on the processing

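Among named genes under the alternatives, 744 values kept direction and side of the threshold, 42 passed it where they had not, 29 no longer passed and 8 turned sign. The null count of 3 became 80 without a filter beyond 1 UMI, 14 with DESeq2, 7 without sex in the fit and 5 with all 3 C1q genes required. It became 1 (none of these 3) without the Csf1r requirement or without the genes required to be absent. It became 0 without the barcodes of highest Scrublet score (edgeR, with 344 at an unadjusted p under 0.05). It was also 0 with wt 1 and 2, and het 1 and 2, each taken as 1 sample (edgeR, with 364). It ran from 0 to 11 when a replicate was left out, and leaving out null 2 or null 3 assumes that the lone null library varies like the other groups. Correlations of deviations between libraries of equal replicate number ran from -0.155 to 0.0273. In a group of 2 libraries the deviations mirror each other, so these values cannot decide whether replicate numbers pair the samples. A replicate block without sex gave 1 call in null and 0 in het. The het count of 0 became 146 without a filter and 1 with DESeq2, and stayed 0 when a replicate was left out. The female count of 1 became 174 without a filter, 2 with DESeq2 (Xist not among them), 2 without the genes required to be absent, 0 in wt libraries only and 1 to 4 when a replicate was left out.

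The share differences ran from -5.44 to -1.04 in null, -4.28 to 0.834 in het and -1.14 to 7.67 in female when a replicate was left out, and the female difference was -0.0897 as a share of all deposited barcodes. Without genes required to be absent, the het log2 difference was 0.59 for Atp6v0d2 and 0.88 for Ccl8. A filter of 500 genes and 10% mitochondrial UMIs left wt 3 and wt 5 with 7 and 8 members, under the minimum of 20, so both were left out of that fit. There the female difference was -1.50 for Lyve1, -0.26 for F13a1 and -0.28 for Vsig4. When a replicate was left out it ran from -0.033 to 3.6 for Lyve1, -0.060 to 4.64 for F13a1 and -1.30 to 11.4 for Saa3, each lowest without wt 5. The cause of these changes was not tested. Groups of 2 libraries limit what a difference can show.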

Other observations

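In the 2 libraries that went into no comparison of groups, members of the library titled het 3 with a strain entry of null had Apoe at 22658 CPM, Trem2 at 451 CPM, Spag11b at 118 CPM, Cst11 at 43.3 CPM, Ccl8 at 1383 CPM and Retnla at 958 CPM. Members of the library titled null 1 with a strain entry without a Nalcn allele had Apoe at 6433 CPM, Trem2 at 85.4 CPM, Spag11b at 6.74 CPM, Cst11 at 0 CPM and Ccl8 at 310.1 CPM.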
